A study of Mus musculus with 2 samples.

Results

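The genes described here encode secreted or membrane-bound proteases of the extracellular matrix and the inhibitors that hold them in check: the matrix metalloproteinases Mmp2, Mmp3, Mmp9 and Mmp14, the ADAMTS proteases Adamts1, Adamts4 and Adamts5, and the tissue inhibitors of metalloproteinases Timp1, Timp2 and Timp3. They were measured in C2C12 cells, an established mouse myoblast line, in which Mybbp1a, a mainly nucleolar protein that binds transcription factors, had been depleted. Members were taken by gene name from the deposited array files, which gave 15 probes of 41174, for 10 genes. The members were picked with their ratios on these same arrays already known, so the ratios below are a description and carry no test.

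The knockdown group held C2C12 cells with a short hairpin RNA against Mybbp1a, and the control group C2C12 cells with a control hairpin. Both were stable transfectants kept as mixed clones at subconfluent density in serum-rich growth medium, and the labels give the line as adult leg muscle of the C3H strain. Each of the 2 arrays set knockdown RNA, labelled with Cy5, against control RNA, labelled with Cy3. No dye swap was made, so a dye effect that normalization leaves in place and an effect of the knockdown cannot be told apart. The labels call the arrays biological replicates without saying whether clone pools or infections were separate, so the spread between them may be technical.

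Matrix metalloproteinases are zinc enzymes made as inactive precursors and switched on by removal of a propeptide. Mmp14, anchored in the cell membrane, activates the Mmp2 precursor on the cell surface with the help of Timp2, while the TIMPs bind the active site of the proteases and block it. ADAMTS proteases cut large proteoglycans such as versican and aggrecan, and in muscle precursors matrix remodelling by these families is known for its part in migration and fusion.

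The identity of each measurement rests on the 60-base probe printed on the array. For 5 members the array held a pair of probes at different places of the same gene, and the first 30 bases of those pairs and of the single Mmp2 and Mmp3 probes are shown because the ratios discussed below differ between probes or between arrays.
Mmp2, A_51_P341736: gttcttcaacatctatgacctttttatggc
Mmp3, A_51_P255699: ctttgtgaaaggaagtgctttgttcagcat
Mmp9, A_52_P507214: ccaaccttttccagctactttagtcaatca
Mmp9, A_51_P401797: tctggcgtgtgagtttccaaaatgaggtga
Mmp14, A_51_P216303: aaaggaatcttaagagtgtacatttggagg
Mmp14, A_52_P304128: ggacagcgagtaccctaaaaacatcaaagt
Adamts1, A_52_P489295: gaaagagctcctgatttcttcttacaccat
Adamts1, A_52_P213932: ttctggctattagagccgctgatggtacct
Adamts5, A_51_P233534: gagtcgaattatgggcagaatctgctctct
Adamts5, A_52_P70231: tttgtgtatttctaataccagtcataacct
Timp1, A_52_P87713: tctgaggactaccagagccgtcactttgct
Timp1, A_51_P512384: ataagggctaaattcatgggttccccacga
No member probe shared a run of 20 bases with a probe of any other gene on the array. On build mm8, as the files give it, the Mmp2 probe lies at chr8:95742069-95742128 and the Mmp3 probe at chr9:7455751-7455810, both on the plus strand. The Mmp14 pair is 1194 bases apart, at chr14:53395337-53395396 and chr14:53394143-53394202. The Adamts1 pair lies on the minus strand, 1147 bases apart, at chr16:85683995-85684054 and chr16:85685142-85685201. The Adamts5 pair is on the same chromosome and strand, at chr16:85751627-85751687 and, 3475 bases away, chr16:85748152-85748211. The Timp1 probes are 1770 bases apart on the X chromosome, at chrX:20031508-20031566 and chrX:20029738-20029797, and the Mmp9 probes 317 bases apart at chr2:164646325-164646384 and chr2:164646008-164646067. The single probes of the remaining members are at chr1:173096215-173096274 for Adamts4, chr11:118117922-118117981 for Timp2 and chr10:85778750-85778809 for Timp3. Whether a probe lies in coding sequence or in an untranslated region was not analysed here.

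Median spot signal was 329 and 449 in the knockdown channel of arrays 1 and 2, and 159 and 184 in the control channel, over a background of 44 to 52. The knockdown RNA was well above background for 65.6% and 79.7% of spots and the control RNA for 64.9% and 72.9%, so array 2 measured more of the dim probes than array 1. Ratios are given as log2 of knockdown over control after loess normalization, and a level is the log2 intensity of 1 channel on a scale made common to both channels and arrays. A probe entered the fit if either channel exceeded background clearly on array 1 and again on array 2, and the brightest of these stood for its gene, which left 18068 genes. Mybbp1a itself, the targeted gene, had levels of 11.04 and 10.79 in knockdown cells and 12.68 and 12.70 in control cells on arrays 1 and 2, which is 3.42-fold lower by a ratio of -1.78 ± 0.19 (SD, n = 2). The median ratio of all tested genes was 0.03 on either array.

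Of the 10 members, 8 could be tested, namely 5 proteases and all 3 inhibitors. Mmp3 and Mmp9 did not pass the filter, because neither RNA was well above background on array 1. Among the 8, 5 were higher in knockdown than in control cells on both arrays (Mmp2, Mmp14, Adamts5, Timp2 and Timp3), against 40.6% of all tested genes, and Adamts1 was the 1 lower on both arrays, against 29.4%. Adamts4 and Timp1 differed in direction between the arrays. With the processed signals Timp2 also did, at -0.10 and 0.21, and with median centring Adamts4 was higher on both, at 0.52 and 0.13. Adamts5 was the 1 member at least 2-fold higher on both arrays, where 0.631% of all genes were, and none was at least 2-fold lower on both, where 0.0553% of all genes were. By limma with Benjamini-Hochberg adjustment at 0.05, 0% of all genes were called and so no member was, although an unadjusted p under 0.05 was reached by 2414 genes with a higher and 1346 with a lower ratio. Centring each array on its median in place of loess gave 3046 genes called higher and 58 called lower, and it moved the median ratio of all genes to 0.21. The members' ratios were used to choose them, so nothing is read from their share of these counts.

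**Figure D1:**
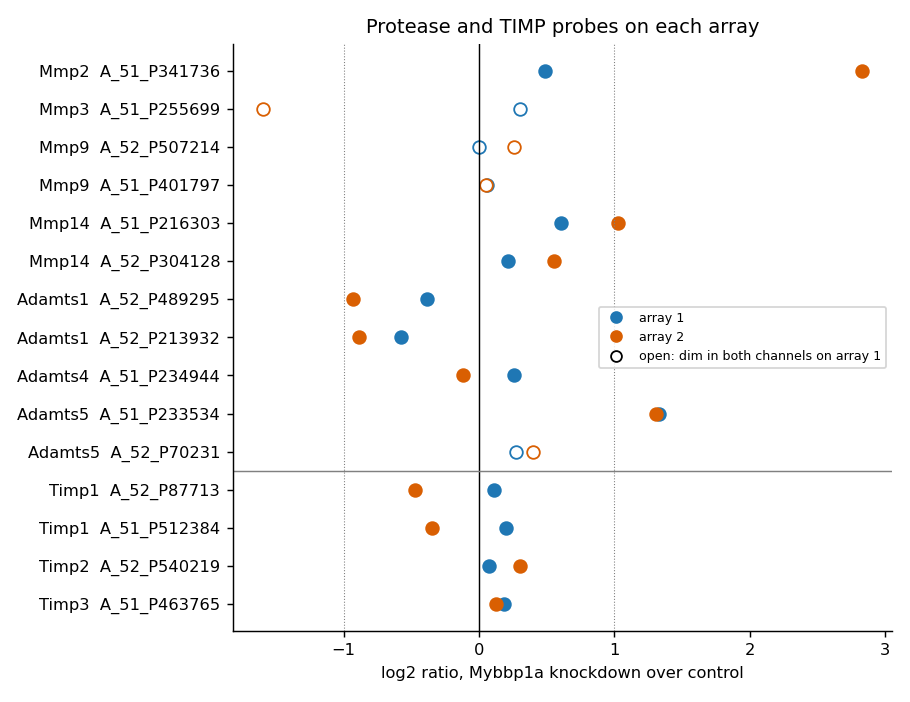
Log2 ratio of knockdown over control for each of the 15 member probes on each of the 2 arrays, proteases above the grey line and inhibitors below it, with probes dim in both channels on array 1 drawn open and dotted lines at a 2-fold difference. The brighter Adamts5 probe has 1.33 and 1.31 on the arrays, both Adamts1 probes lie below 0 on both arrays, and Mmp2 spans 0.49 to 2.83.

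Among the matrix metalloproteinases, the gelatinases cut denatured collagen and basement membrane. Mmp2, or gelatinase A, had levels of 11.40 and 11.01 in knockdown cells on arrays 1 and 2, and of 10.91 and 8.18 in control cells. Its level in knockdown cells lay above that in control cells on both arrays, and most of the gap between arrays lay in the control channel, which was lower by 2.73 on array 2 while the knockdown channel was lower by 0.38. This gave ratios of 0.49 and 2.83, whose mean was 1.66 ± 1.66 (SD, n = 2), or 3.16-fold. The mean thus equals its own spread, and the arrays share a direction but not a size. It stood at percentile 99.7 of all tested genes.

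Mmp9, or gelatinase B, is the enzyme best known from leukocytes and from inflamed or injured muscle. Its probe A_52_P507214 was printed 10 times on each array, of which 10 and 8 spots were kept. On array 1 none of the kept spots was well above background in either channel, and the ratio over spots ran between -0.15 and 0.16 with a median of -0.003. On array 2 all 8 kept spots were well above background for knockdown RNA and 2 of them for control RNA, and the ratios ran between 0.06 and 0.44 with a median of 0.26. Knockdown levels were 6.65 and 6.96 and control levels 6.65 and 6.71. The other probe, A_51_P401797, was dim in both channels on array 1 and well above background in both on array 2, where its ratio was 0.05. On array 1 that probe gave 0.06.

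Mmp3, or stromelysin-1, degrades proteoglycans, fibronectin and several collagens and can activate other metalloproteinase precursors. It had raw signals of 110 and 249 in the knockdown channel of arrays 1 and 2, and of 70.2 and 330 in the control channel, and was well above background on array 2 alone, in both channels. Levels were 6.85 and 7.24 in knockdown cells and 6.55 and 8.84 in control cells, so array 2 had the higher level in either group and the control cells of that array had the highest of the 4. The ratio was 0.30 on array 1, where neither RNA was well above background, and -1.60 on array 2. The readings of array 2 exceeded those of array 1 by 0.39 in the knockdown channel and by 2.29 in the control channel, but those of array 1 were not above background, so neither difference has a fixed size.

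Mmp14, the membrane-type protease that activates the Mmp2 precursor, was well above background in every sample. By its probe A_51_P216303 its level was 16.58 and 16.08 in knockdown cells and 15.97 and 15.05 in control cells. Knockdown exceeded control on each array by this probe. The ratio was 0.61 and 1.03, with a mean of 0.82 ± 0.30 (SD, n = 2), or 1.76-fold, at percentile 97.3 of all tested genes. Its other probe, A_52_P304128, had levels of 10.66 and 10.16 in knockdown cells and 10.44 and 9.61 in control cells. There the knockdown level of array 2 lay below the control level of array 1. That probe gave a smaller ratio of the same direction, 0.22 and 0.55, with a mean of 0.38 ± 0.24 (SD, n = 2).

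**Figure D2:**
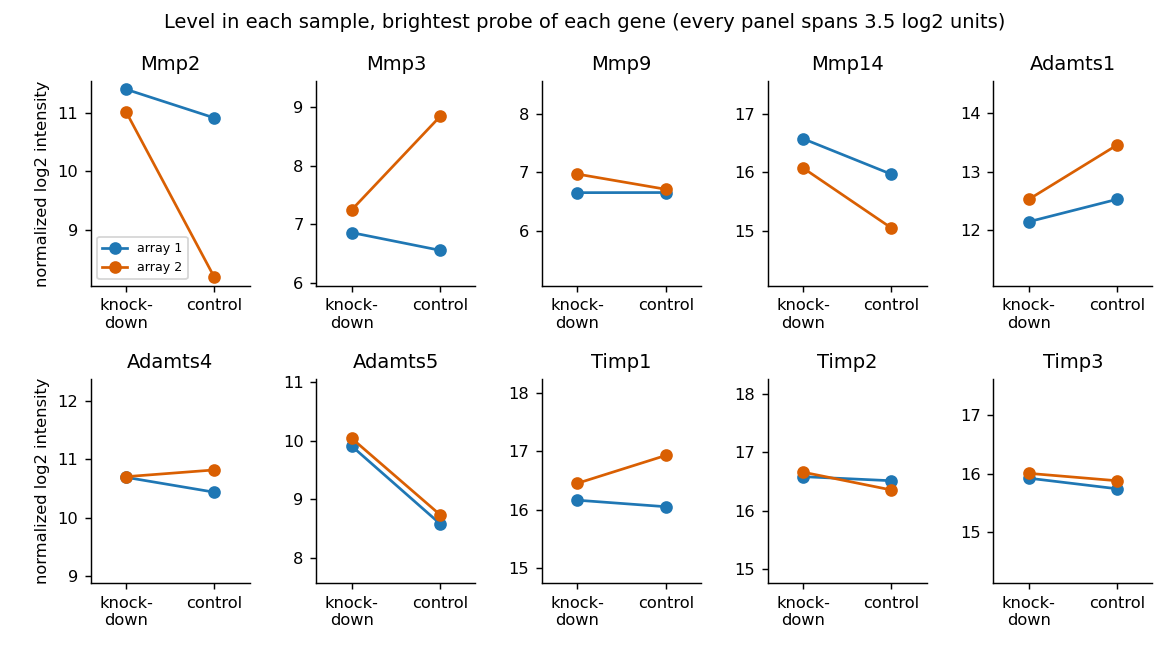
Log2 level of each member by its brightest tested probe (for Mmp3 and Mmp9, their brightest probe) in knockdown and control cells, with a line for each array and panels that span equal ranges of log2 units. Mmp2 and Mmp3 show a control level on array 2 far from that on array 1, and the Adamts5 lines nearly coincide.

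Among the ADAMTS proteases, the aggrecanases Adamts4 and Adamts5 showed different values. Adamts5, which also cuts versican, had levels of 9.91 and 10.04 in knockdown cells and 8.58 and 8.73 in control cells by A_51_P233534. Knockdown exceeded control on each array by this probe, and the arrays gave nearly the same gap. The ratio was 1.33 and 1.31, with a mean of 1.32 ± 0.02 (SD, n = 2), or 2.49-fold, at percentile 99.3. Its other probe, A_52_P70231, which the array design assigns to a separate cDNA record, lies on the 3′ side and was dim. Knockdown RNA was well above background there on array 2 alone and control RNA on neither array. The ratio was 0.28 and 0.40, and 2.00 and 2.26 in the processed signals. With control RNA unmeasured, the size of this ratio is not fixed, and it adds nothing to the value of the brighter probe.

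Adamts4 had levels of 10.69 and 10.70 in knockdown cells and 10.43 and 10.82 in control cells. The knockdown values lay between the control values, so the groups overlapped. Ratios of 0.25 on array 1 and -0.12 on array 2 averaged 0.07 ± 0.26 (SD, n = 2), at percentile 58.1 of all tested genes.

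Adamts1, which cuts versican and aggrecan and was described as induced by inflammation and by growth stimuli, was the 1 protease lower in knockdown cells on both arrays. By A_52_P489295 its level was 12.14 and 12.53 in knockdown cells and 12.53 and 13.46 in control cells. Knockdown was the lower channel on each array, although the knockdown level of array 2 equalled the control level of array 1. Ratios of -0.38 and -0.93 averaged -0.66 ± 0.39 (SD, n = 2), which is 1.58-fold lower, at percentile 0.880. The other probe, A_52_P213932, had levels of 8.36 and 8.35 in knockdown cells and 8.94 and 9.24 in control cells. It gave -0.58 and -0.89, a mean of -0.73 ± 0.22 (SD, n = 2), so both places of the transcript had a ratio of similar size. Adamts1 and Adamts5 are neighbours on chromosome 16 on the same strand, and their ratios had opposite signs on both arrays.

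The 3 inhibitors were well above background in every sample and had mean ratios between -0.18 and 0.19. Timp2, which blocks most metalloproteinases and helps Mmp14 to activate Mmp2, had levels of 16.58 and 16.66 in knockdown cells and 16.51 and 16.35 in control cells. Knockdown lay just above control on each array, and the ratio was 0.07 and 0.30, a mean of 0.19 ± 0.17 (SD, n = 2). Timp3, which is bound to the matrix and also inhibits Adamts4 and Adamts5, had levels of 15.92 and 16.01 in knockdown cells and 15.74 and 15.88 in control cells. There too knockdown lay just above control on each array, and the ratio was 0.18 and 0.13, a mean of 0.15 ± 0.04 (SD, n = 2). Timp2 stood at percentile 74.9 of all tested genes, Timp3 at 71.3 and Timp1, described next, at 16.3.

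Timp1, an inhibitor induced by growth factors and cytokines, had levels of 16.16 and 16.45 in knockdown cells and 16.05 and 16.93 in control cells by A_52_P87713. The knockdown values lay inside the range of the control values. Ratios of 0.11 on array 1 and -0.48 on array 2 averaged -0.18 ± 0.42 (SD, n = 2), which became 0.34 with median centring in place of loess. Its other probe, A_51_P512384, showed the same pattern, with 0.20 and -0.35 and a mean of -0.07 ± 0.39 (SD, n = 2). On both probes the control channel was the one that differed more between arrays.

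**Figure D3:**
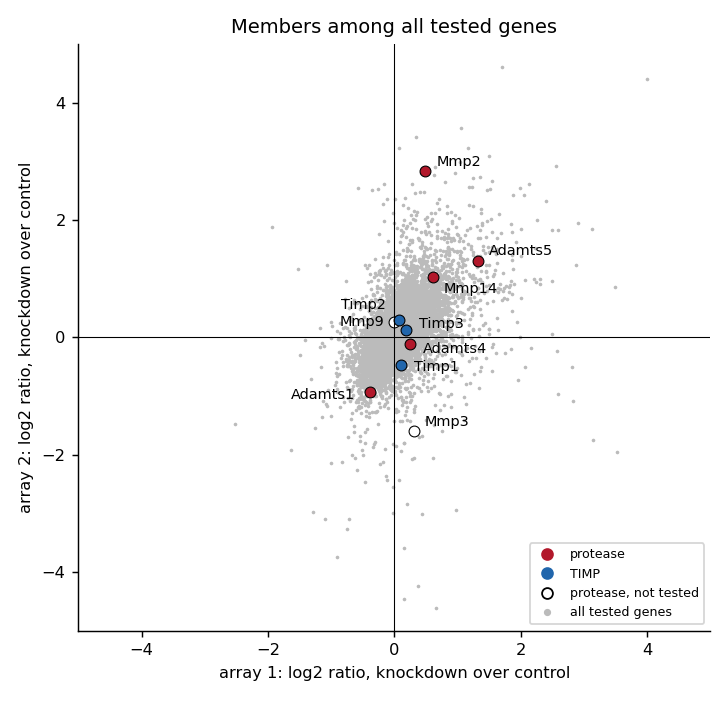
Log2 ratio of knockdown over control on array 1 (horizontal axis) against array 2 (vertical axis) for the members, with the 18068 tested genes in grey and Mmp3 and Mmp9, which were not tested, drawn open. Mmp2 lies far above the diagonal at 0.49 and 2.83, Adamts5 lies on it, and the inhibitors lie within the grey cloud.

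Set against each other, the tested proteases had the higher median and the wider range. The median over the 5 tested proteases was 0.49 on array 1 and 1.03 on array 2, and over the 3 inhibitors 0.11 and 0.13. Over both arrays the medians were 0.82 for the proteases and 0.15 for the inhibitors, a difference of 0.66, where all tested genes had 0.03. The proteases did not share a direction: their mean ratios ran between -0.66 for Adamts1 and 1.66 for Mmp2, whereas those of the inhibitors ran between -0.18 and 0.19. By family, Mmp2 and Mmp14 had a median of 1.24 and the 3 ADAMTS genes one of 0.07. Leaving out the filter adds Mmp3 and Mmp9, whose readings on array 1 were not above background. The median over all 7 proteases was then 0.30 on array 1, 0.26 on array 2 and 0.13 over the means, and exceeded that of the inhibitors by 0.19 and 0.13 on the arrays while differing by -0.02 over the means. The median on array 1 is the reading of the dim Mmp3 probe itself. Those on array 2 and over the means are readings of the dim Mmp9 probe. No order of proteases and inhibitors is therefore read from any of these medians. Members are not replicates of a condition, and a test of proteases against inhibitors was not made.

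The differences between arrays were then laid out by channel. Over all tested genes, the level of array 2 minus that of array 1 had a median of -0.08 and an SD of 0.41 in the knockdown channel, and a median of -0.09 and an SD of 0.52 in the control channel. For Mmp2 this difference was -0.38 in knockdown cells and -2.73 in control cells. The control value of Mmp2 thus lay over 4 SD of the control channel from 0, whereas its knockdown value lay within 1 SD. Mmp2 was chosen with its ratios known, so this is a description and no test. By their brightest probes, Mmp14 at -0.92, Adamts1 at 0.93 and Timp1 at 0.88 also had control values beyond 1 SD. Their knockdown values were -0.50, 0.38 and 0.29. The control values of Adamts4, Adamts5, Timp2 and Timp3 lay within 1 SD. For Mmp3 the readings differed by 0.39 in knockdown cells and 2.29 in control cells, from array 1 readings that were not above background. Slide and replicate cannot be told apart, because each slide held 1 array.

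**Figure D4:**
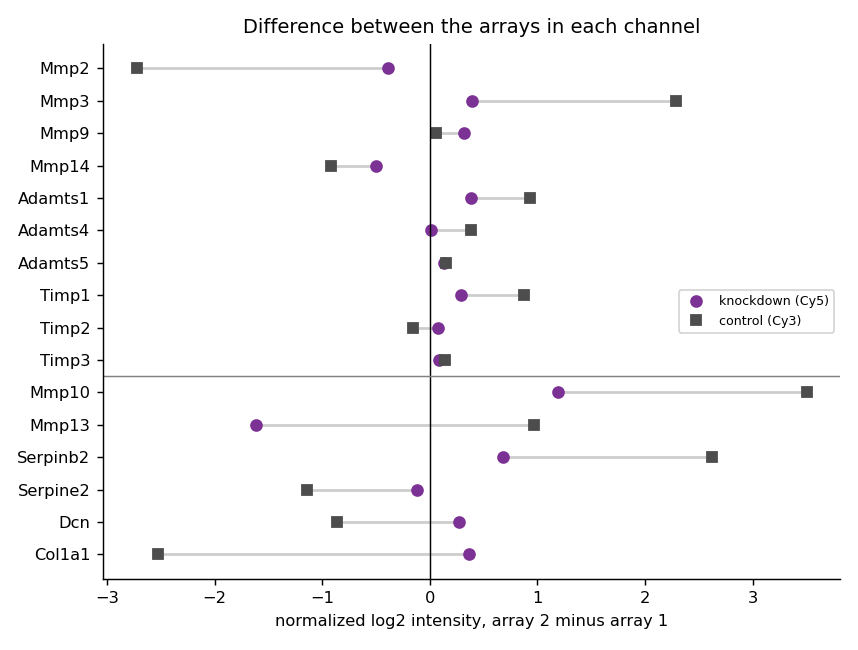
Level on array 2 minus level on array 1, in log2 units, for each member (above the grey line) and 6 genes of related and marker lists (below it), with circles for the knockdown channel and squares for the control channel. Mmp2 has -0.38 in the knockdown channel and -2.73 in the control channel. The array 1 readings of Mmp3 and Mmp9 were not above background, and control RNA of Mmp13 was well above background on only 1 array. The 6 genes below the line were picked by hand.

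Promoter sequence could be matched for 6 of the 10 members in RefSeq (GRCm38.p6). The window of 250 bases before the start was searched on both strands for the AP-1 motif TGANTCA, a palindrome bound by Fos and Jun proteins that are textbook inducers of metalloproteinases. Mmp3 was the 1 matched member with it, in a single copy 46 bases before the start, where 6.75% of 32851 RefSeq promoters held at least 1 copy. The Mmp3 window at chr9:7445572-7445821 (GRCm38.p6, plus strand) is shown because Mmp3 was the 1 matched member with an AP-1 match, with the AP-1 match in capitals.
Mmp3 promoter: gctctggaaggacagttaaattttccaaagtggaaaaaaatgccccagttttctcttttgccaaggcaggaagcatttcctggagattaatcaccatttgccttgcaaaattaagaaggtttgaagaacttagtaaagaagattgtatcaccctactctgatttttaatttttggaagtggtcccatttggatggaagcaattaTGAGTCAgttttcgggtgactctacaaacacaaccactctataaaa
The GC box GGGCGG, which does not overlap the AP-1 motif, was found in 3 copies in Adamts1, in 2 in Mmp14 and in 1 each in Timp1, Timp2 and Timp3, and in 32.7% of all promoters. The TATAAA motif was found in Mmp3 and Adamts1, and in 12.4% of all promoters. These are letter matches only.

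Related genes of the pathway gave the following counts, each beside the shares of 40.6% higher and 29.4% lower on both arrays over all genes, and with none called by limma in any list. Of 17 other matrix metalloproteinases on the array, 9 were tested, of which 5 were higher and 3 lower on both arrays, with a median ratio of 0.13. Mmp10, or stromelysin-2, had levels of 7.18 and 8.38 in knockdown cells and 7.30 and 10.80 in control cells, a ratio of -0.11 on array 1 and -2.43 on array 2. The collagenase Mmp13 had levels of 9.17 and 7.55 in knockdown cells and 7.10 and 8.06 in control cells, a ratio of 2.07 and -0.51. Control RNA was well above background for Mmp13 on only 1 of the 2 arrays, and the first ratio, with the lower control level, was 3.90 in the processed signals, so its size is not fixed. Both had a mean smaller than its SD, -1.27 ± 1.64 and 0.78 ± 1.83 (n = 2). Of 15 other ADAMTS proteases, 10 were tested, of which 4 were higher and 2 lower on both arrays, with a median of 0.11. Adamts2, which trims the amino-terminal propeptide of fibrillar procollagens, had levels of 9.44 and 9.66 in knockdown cells and 7.39 and 7.24 in control cells, a ratio of 2.23 ± 0.26 (SD, n = 2), or 4.71-fold. The size depended on the background correction: the ratio was 3.36 in the processed signals and in the deposited table and 2.70 with an offset of 10. The arrays gave 2.05 and 2.42. Adamts2 was the 1 gene of these lists, markers of cell types aside, at least 2-fold higher on both arrays, against 0.631% of all genes. Adamts6 had 0.02 and -1.22.

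Of 5 other metalloproteinase inhibitors, 2 were tested. Reck, a membrane-anchored inhibitor of Mmp2, Mmp9 and Mmp14, had levels of 9.56 and 9.82 in knockdown cells and 8.76 and 8.72 in control cells, a ratio of 0.95 ± 0.21 (SD, n = 2). Its ratio was larger than that of any TIMP. Timp4 had 0.23 and 0.06. All 5 ADAMTS-like proteins, which lack the protease domain, were tested, and 3 were higher and 1 lower on both arrays, between Adamtsl4 at a mean of 0.50 and Adamtsl2 at -0.09. Adamtsl3, among the higher, had control RNA well above background on neither array and so entered through its knockdown channel. With both channels required above background, 4 were tested, of which 2 were higher and 1 lower on both arrays. Of 7 ADAM membrane proteases tested, 4 were higher and 1 lower on both arrays, with the highest mean for Adam9 at 0.44 and the lowest for Adam8 at -0.14, which became 0.24 with median centring.

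Among convertases, activation partners and uptake receptors, 8 of 10 genes were tested, of which 6 were higher and 1 lower on both arrays. Itgb3, the beta subunit of the vitronectin receptor that can dock Mmp2, had 0.91 and 1.10, a mean of 1.01 ± 0.14 (SD, n = 2). Furin, the convertase that removes the Mmp14 propeptide, had -0.19 and -0.13, with a mean of -0.16 that became 0.14 with median centring. The plasminogen system, whose plasmin activates metalloproteinase precursors, had 9 tested genes, 6 higher and 2 lower on both arrays, with a median of 0.06. Serpine2, an inhibitor of plasminogen activators, had 0.29 and 1.32. Serpinb2, also an inhibitor of them, had levels of 10.32 and 11.00 in knockdown cells and 10.17 and 12.79 in control cells, a ratio of 0.15 and -1.79. Of 5 tested proteoglycan substrates, 2 were higher and 1 lower on both arrays, with decorin (Dcn) at 0.25 and 1.38 and Ncan at -0.11 and -0.18. All 24 transcription factors and cytokines known to induce metalloproteinases were tested, and 13 were higher and 3 lower on both arrays, with a median of 0.14. Etv1 had the highest mean of them, 0.74 ± 0.82, and the AP-1 subunit Fosl1 the lowest, -0.32 ± 0.20 (SD, n = 2).

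**Figure D5:**
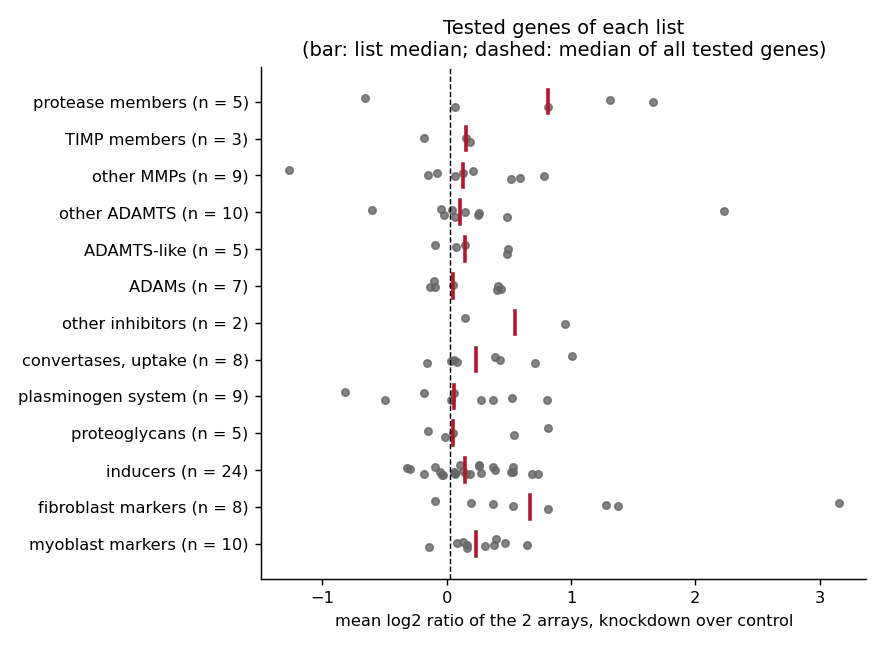
Mean log2 ratio of the 2 arrays, knockdown over control, for each tested gene of the member groups, related lists and marker lists, with list medians as bars and the median of all tested genes dashed. The protease members have a median of 0.82 and the TIMPs 0.15, and among the related lists Adamts2 at 2.23 lies apart from the other ADAMTS genes.

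Markers were checked for the labelled cell type and for others. All 10 myoblast markers were well above background in both groups on both arrays. Of them 6 were higher and 1 lower in knockdown cells on both arrays, against 40.6% and 29.4% of all tested genes. Their median ratio was 0.13 on array 1, 0.44 on array 2 and 0.24 over the means. Chrna1, the brightest of them, was the 1 lower, at -0.06 and -0.23. Myod1 had -0.20 and 0.36, Myf5 0.21 and 0.59, and desmin (Des) 0.05 and 0.21, and the summed marker level was 17.6 and 17.4 in knockdown cells and 17.6 and 17.3 in control cells. Of the fibroblast list, which shares Dcn with the substrates, 6 of 8 tested genes were higher in knockdown cells on both arrays and none lower, with a median of 0.67. Their summed level was 18.2 and 18.5 in knockdown cells and 17.6 and 17.1 in control cells. Col1a1 had levels of 14.71 and 15.07 in knockdown cells and 13.00 and 10.47 in control cells, again with the larger difference between arrays in the control channel, whereas Thy1 was not well above background in either group. The part of these genes' difference in the protease ratios was not tested, and a change in the share of some cells of the mixed clones and a change of RNA per cell cannot be told apart in bulk RNA. Of 9 leukocyte markers, 6 and 8 were well above background in knockdown cells on arrays 1 and 2, and 5 and 8 in control cells. Of the 6 tested, 3 were higher and 1 lower in knockdown cells on both arrays. The median ratio of those tested was 0.22 on array 1 and -0.02 on array 2. Tyrobp, with the highest mean, had 0.66 and 0.71, and Cd14, the 1 lower, had -0.11 and -0.27. The defining marker Ptprc was above background in no sample. Of 7 endothelial markers, 3 and 5 were well above background in knockdown cells and 2 and 5 in control cells. All 3 tested were higher in knockdown cells on both arrays, with Cdh5 at 1.03 and 0.68 and control RNA measured on 1 array, while Pecam1 and Tie1 were above background in no sample. The part of these markers in the protease ratios was not tested. Summed leukocyte marker levels were 12.5 and 12.4 in knockdown cells and 12.4 and 12.4 in control cells, and summed endothelial marker levels 10.1 and 10.1 in knockdown cells and 9.78 and 9.94 in control cells.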

How the data were processed

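Total RNA of C2C12 knockdown and control cells was hybridised to 2 two-colour Agilent mouse arrays. Per the file headers, Agilent Feature Extraction 9.5.3.1 read the images, and spot intensity and local background were deposited unsubtracted. Also deposited were processed intensity values, their log10 ratio (Cy5 over Cy3), and the p-value an error model of 1 array assigns to it. The series' deposited value table holds log2 ratios: 99.4% of values on either array matched the log10 ratio, once converted, within 0.001; medians were 0, and 1165 and 2004 values were blank.

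Intensities were corrected with normexp (offset 50) and normalized by loess (span 0.3) with limma 3.58.1 (R 4.3.3). Control spots (1639) were given weight 0, flagged spots (154 and 237) were left out, and spots of 1 probe were averaged. No member spot was saturated. Channel levels were taken after loess and Aquantile scaling. Probes were named through their accession in RefSeq GRCm38.p6 (23374), a current symbol (6735) or a synonym (2907), and 8158 kept the file's name. All 18068 genes were fitted with an intercept, lmFit and eBayes, with Benjamini-Hochberg adjustment, and 1 residual degree of freedom. An exact sign-flip test of 2 arrays cannot go below 0.5. The script was tested on simulated data.

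Members and lists were chosen with earlier results of these data known. Named genes are all members, Mybbp1a and fixed markers. From each list came the genes at least 2-fold apart in 1 direction on both arrays, otherwise those with the highest and lowest mean. Chrna1, Thy1, Tyrobp, Cd14, Cdh5, Pecam1, Tie1 and Adamtsl3 were named after their values were seen. Mmp1b, Mmp27 and Adamts17 were not analysed here. Alternatives were the processed signals, median centring, an offset of 10, no background subtraction, other filters on dim probes, the mean over probes, the deposited table and each array alone.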

Additional observations from a re-analysis of the deposited data

How the results depend on the processing

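With 2 arrays and no dye swap, precision is limited by the number of arrays, and dim members (Mmp3, Mmp9, the second Adamts5 probe) by signal over background. Over the 9 settings with a mean of both arrays (8 for Timp2 and Timp3), Mmp2 had 1.66 to 1.92, Mmp14 0.60 to 1.31, Adamts1 -0.70 to -0.37, Adamts4 0.05 to 0.33 and Adamts5 1.32 to 1.53. Timp1 had -0.27 to 0.34, with a positive value under median centring alone; Timp2 had 0.06 to 0.72 and Timp3 0.10 to 0.64. The processed signals gave an inhibitor median of 0.057, and 234 genes at least 2-fold higher and 23 lower on both arrays, where the values in the report were 114 and 10. Median centring gave a protease median of 1.31, an inhibitor median of 0.64, 3046 genes called higher, 58 called lower, 289 at least 2-fold higher and 6 lower, with an all-gene median of 0.21. Without the filter on dim probes 27537 genes were tested, the protease median was 0.13 and the protease minus inhibitor difference -0.025, since the dim Mmp3 and Mmp9 then enter. In the deposited table, which holds a value for Timp1 alone of the inhibitors' brightest probes, the inhibitor median was -0.27, the difference 1.08, with 221 genes 2-fold or more higher and 22 lower. Counts and medians of the related lists moved as well. Among convertases, activation partners and uptake receptors, 4 were higher and 2 lower on both arrays with the processed signals. With median centring 8 were higher and 0 lower. Median centring also gave a median of 0.57 for the plasminogen system and of 0.41 for the inducers. The cause of the other changes was not tested. Leaving out either array gave an inhibitor median of 0.11 to 0.13. Each array is itself a knockdown and control pair, so the fit of the ratios is paired and no further block was fitted.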

Other observations

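Mmp3, Mmp10 and Mmp13 belong to a cluster of 10 metalloproteinase genes on mouse chromosome 9, which RefSeq orders as Mmp13, Mmp12, Mmp1b, Mmp3, Mmp1a, Mmp10, Mmp8, Mmp27, Mmp20 and Mmp7, with 3 other genes among them and none of those protein-coding. The level of array 2 minus that of array 1 in the knockdown channel was 0.39 for Mmp3, 1.19 for Mmp10 and -1.62 for Mmp13. In the control channel it was 2.29 for Mmp3, 3.51 for Mmp10 and 0.97 for Mmp13. For Mmp3 on array 1 in both channels, and for Mmp13 in the control channel of 1 array, the readings were not well above background, so these differences have no fixed size. Serpinb2, which lies outside the cluster, had 0.68 in the knockdown channel and 2.63 in the control channel. Other genes had a lower control level on array 2: Mmp2 had -0.38 in the knockdown and -2.73 in the control channel, Col1a1 had 0.37 and -2.53, Etv1 -0.15 and -1.31, and Serpine2 -0.12 and -1.15. These genes were put together after their values were seen, and no test was made.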
